A study of Mus musculus with 6 samples.

Results

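Rnf112 and 9 genes that follow it towards the telomere on mouse chromosome 11 were described in the hippocampus of mice with and without an extra copy of the stretch that ends at Rnf112. The genes are Rnf112, Mfap4, Mapk7, B9d1, Epn2, Fam83g, Prpsap2, Ulk2, Akap10 and Pigl. They were chosen by name and position, with earlier results of these data known. All 10 were measured, with 25 probe sets (a probe set is the group of array probes that gives 1 value for a transcript) of the 45037 on the array that are not controls. The duplication group was 3 Dp(11)17/+ mice and the wild-type group 3 +/+ mice, with 1 array of hippocampus RNA per mouse. All 6 were labelled as males of 11 to 14 weeks on the C57BL/6-Tyr c-Brd strain, which carries a tyrosinase allele of albino coat in both groups. The duplication is carried in the germ line and so by all cells of the animal.

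The Dp(11)17 chromosome carries a segment of mouse chromosome 11 in duplicate, as in the human disorder Potocki-Lupski syndrome that these mice model. A heterozygous mouse has 3 copies of each gene inside the segment and 2 copies of each gene outside it, a ratio of 1.5, or 0.58 on the log2 scale. The segment was taken to run from Cops3 at its centromeric end to Rnf112 at its telomeric end. The sources used here do not give where within or beside Rnf112 the end lies, or whether the added copy of Rnf112 is whole. Genes just outside a duplicated segment keep the normal copy number, yet their neighbourhood on the chromosome is rearranged, which is why flanking genes are commonly examined in such models. The 10 genes share a place on the chromosome and not a pathway. Rnf112 encodes a RING finger ubiquitin ligase of the brain with a GTPase domain, and the 9 others serve the extracellular matrix, a kinase cascade, the primary cilium, endocytosis, nucleotide synthesis, autophagy, kinase anchoring and the making of lipid anchors for proteins.

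In the gene order of the RefSeq gene table, Rnf112 is followed by Mfap4, Mapk7, B9d1, Epn2, Grap, Slc5a10, Fam83g, Prpsap2, Ulk2, Akap10 and Specc1, with Pigl further on, past Zswim7 and Ttc19. The gene spans of Fam83g and Slc5a10 overlap in that table.

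Signal differed between mice within each group. Duplication replicate 1 had a log2 value of 9.13 for Xist, the RNA of the inactive X chromosome, against 3.06 to 3.69 in the other mice, and low values of the Y-linked Eif2s3y and Kdm5d, so that array goes against its label of male. Markers that define CA1 pyramidal cells and dentate granule cells were present on all 6 arrays, with means over 7 CA1 markers of 6.23 to 8.40 and over 8 dentate markers of 5.42 to 7.96. The lowest of each was duplication replicate 3, which also had the highest mean over 10 striatal markers, 7.69 against 5.58 to 6.19 in wild-type mice, and over 12 markers of thalamus and habenula, 6.55 against 4.66 to 4.90. Duplication replicate 1 had a striatal mean of 6.96. Wild-type mice differed too. The mean over 8 choroid plexus markers was 7.37, 4.24 and 4.41 in wild-type replicates 1 to 3 and 6.27, 4.62 and 6.60 in duplication replicates 1 to 3. In bulk tissue, fewer cells of a type and less RNA per cell cannot be told apart. The labels give individual numbers that lie apart for duplication and wild-type animals, and they name no cohort or batch. Any such difference between the groups could not be told apart from genotype.

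The promoters of 4 of the telomeric genes, those with a probe set in which the groups did not overlap, are printed here as background. No result below rests on these sequences. Fam83g and Pigl each had a probe set with the duplication mice all at the low end, and the adjacent Ulk2 and Akap10 each had a dimmer one with them all at the high end, although that of Akap10 lies too near the bottom of the scale to read a level from and the gene's brightest probe set was lower. Each is 300 bases, from 250 before to 50 after an annotated start, taken from RefSeq's promoter table of build GRCm38.p6 and written 5′ to 3′ on the gene's own strand. Capitals mark matches, on either strand, to 4 short motifs that may overlap each other. The first is the GC box, spelled GGGCGG. The second is the E-box, spelled CACGTG. The third is the TATA box, spelled TATAAA. The last is the CCAAT box, spelled as it is named. The Fam83g window is chr11:61684160-61684459 on the plus strand, that of Pigl chr11:62458191-62458490 on the plus strand, that of Ulk2 chr11:61855043-61855342 on the minus strand and that of Akap10 chr11:61930208-61930507 on the minus strand.
Fam83g: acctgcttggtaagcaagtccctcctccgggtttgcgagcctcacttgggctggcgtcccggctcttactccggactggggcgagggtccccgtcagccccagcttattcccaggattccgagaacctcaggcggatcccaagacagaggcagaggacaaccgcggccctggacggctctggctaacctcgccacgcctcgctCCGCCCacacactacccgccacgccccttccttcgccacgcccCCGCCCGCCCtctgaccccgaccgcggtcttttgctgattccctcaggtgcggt
Pigl: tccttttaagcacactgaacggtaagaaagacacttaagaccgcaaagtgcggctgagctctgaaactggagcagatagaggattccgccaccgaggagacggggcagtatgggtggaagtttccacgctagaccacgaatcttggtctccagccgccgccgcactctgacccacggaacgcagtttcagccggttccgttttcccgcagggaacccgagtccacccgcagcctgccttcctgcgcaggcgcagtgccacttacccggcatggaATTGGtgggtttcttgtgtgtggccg
Ulk2: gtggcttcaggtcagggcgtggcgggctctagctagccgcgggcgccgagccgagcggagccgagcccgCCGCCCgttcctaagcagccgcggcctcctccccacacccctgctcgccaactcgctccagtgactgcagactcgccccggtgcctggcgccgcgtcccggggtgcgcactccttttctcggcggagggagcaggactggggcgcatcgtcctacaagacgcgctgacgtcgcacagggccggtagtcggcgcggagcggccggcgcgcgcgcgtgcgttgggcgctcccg
Akap10: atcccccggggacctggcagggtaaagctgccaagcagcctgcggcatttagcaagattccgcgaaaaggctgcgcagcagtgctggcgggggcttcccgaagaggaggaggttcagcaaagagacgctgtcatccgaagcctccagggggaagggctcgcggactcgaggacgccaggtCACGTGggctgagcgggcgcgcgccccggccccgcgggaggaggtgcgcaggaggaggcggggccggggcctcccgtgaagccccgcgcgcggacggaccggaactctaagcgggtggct

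The 4 windows held 26, 22, 45 and 32 CpG dinucleotides for Fam83g, Pigl, Ulk2 and Akap10, against a median of 7 over 32841 promoter windows of the same length. Fam83g held 3 matches to the GC box and Ulk2 held 1, a motif found in 35.7% of all windows. Pigl held 1 match to the CCAAT box, found in 37.4% of windows, and Akap10 held 1 E-box, found in 7.15%. The TATA box, found in 13.6% of windows, had 0 matches in these 4. All 4 windows were rich in CpG, whichever way the probe set lay. So were most windows of the other members, with 31 and 33 CpG for Mapk7, 24 for B9d1, 23 for Epn2, and 17 and 2 for Prpsap2. The GC box had 3 matches in each Mapk7 window, in that of Epn2 and in the richer one of Prpsap2, and 1 in that of B9d1. These traits are thus not particular to the 4 genes printed. Promoters were matched by symbol for 8 of the 10 members.

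None of the 25 probe sets of the members passed an adjusted p of 0.05 in limma (0 of 25, adjusted p-values of 0.994 to 0.998), where 0% of the 45037 probe sets did. Of those 45037, 1272 had an unadjusted p under 0.05, and of the other statistics run, the plain one also called 0 and the trend with robust prior and the array weights 1 each. At an unadjusted p under 0.05 there were 4 of the 25. The 2 higher ones were 1 of 3 probe sets of Rnf112 and 1 of 4 of Akap10, where 1.44% of all probe sets were higher at that threshold, and the 2 lower ones were the brighter probe sets of Fam83g and Pigl, where 1.39% were lower. The groups did not overlap in 4 of the 25. The duplication mice were the 3 highest in 2 of them (1 of Akap10 and 1 of Ulk2), against 3.41% of all probe sets, and the 3 lowest in 2 (Fam83g and Pigl), against 4.61%. With counts this small, no reading is made of the shares. An exact permutation test (two-sided, 20 labelings of the mice) cannot give a p under 0.1 here, and it gave 0.1 for these 4 probe sets.

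**Figure D1:**
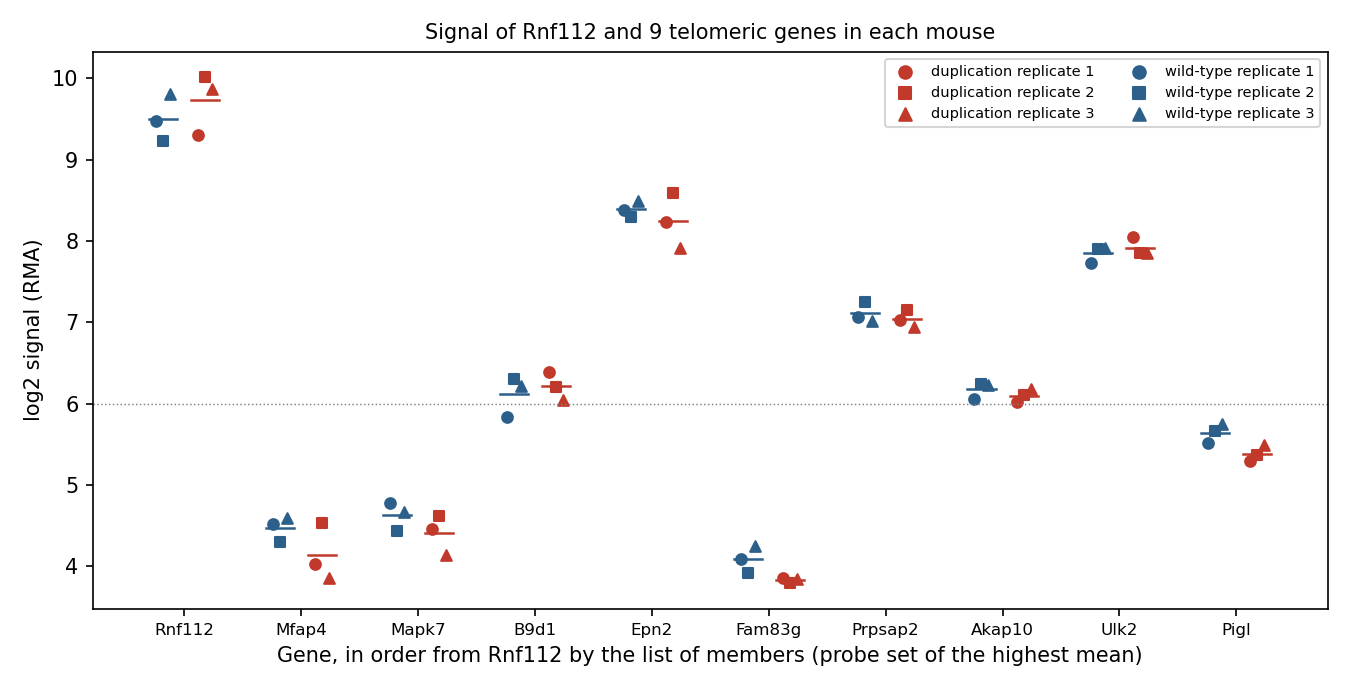
Log2 signal (RMA) of each of the 10 genes at its probe set of the highest mean, by mouse; points are mice, short lines are group means of 3 mice, and the dotted line is a log2 value of 6. For Fam83g and Pigl the 3 duplication mice lie below the 3 wild-type mice, and for the other 8 genes the groups overlap.

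Rnf112, the gene at the segment's end, was higher on average in duplication mice at all 3 of its probe sets, with overlapping groups at each. At its brightest probe set, 1418360_at, the log2 values were 9.31, 10.02 and 9.86 in duplication replicates 1, 2 and 3 and 9.47, 9.22 and 9.81 in wild-type replicates 1, 2 and 3. Duplication replicates 2 and 3 were the highest of the 6, duplication replicate 1 lay between wild-type replicates 2 and 1, and the groups overlapped. This gave a log2 fold change of 0.23 (SE 0.22, 1.17-fold, 95% interval -0.29 to 0.74, limma adjusted p = 0.994, exact permutation p = 0.4).

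Its second probe set, 1456108_x_at, read 7.86, 8.41 and 8.41 in duplication replicates 1 to 3 and 7.87, 7.63 and 7.91 in wild-type replicates 1 to 3. Here too duplication replicates 2 and 3 stood above all wild-type mice while duplication replicate 1 lay among them. Its log2 fold change was 0.43 (SE 0.17, 1.34-fold, 95% interval 0.03 to 0.82, unadjusted p = 0.0390, limma adjusted p = 0.994). The suffix x in its name marks probes that can also match other transcripts. Without duplication replicate 1 the log2 fold change of this probe set was 0.61 (unadjusted p = 0.00208), and its unadjusted p was over 0.05 when any other mouse was left out, with a lowest log2 fold change of 0.33.

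The dimmest Rnf112 probe set, 1460385_a_at, read 6.23, 7.08 and 6.44 in duplication mice and 5.97, 6.07 and 7.02 in wild-type mice, in replicate order. Wild-type replicate 3 was high here, at the level of duplication replicate 2. The log2 fold change of 0.23 (SE 0.32) lay between -0.02 and 0.56 with 1 mouse left out, and the negative end was without duplication replicate 2. In all 3 probe sets duplication replicate 2 was the highest mouse, level with replicate 3 at 1456108_x_at, and duplication replicate 1 was the lowest of its group. At the brightest probe set the log2 fold change was 0.44 without duplication replicate 1, 0.08 without duplication replicate 2, 0.09 without wild-type replicate 2, 0.38 without wild-type replicate 3, and 0.29 with a regional marker score as covariate.

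The 95% intervals of all 3 Rnf112 probe sets held 0.58, the value of 3 copies over 2, and those of the brightest and the dimmest also held 0. With 3 mice a group, those 2 probe sets therefore did not tell a change of 1.5-fold from no change. The interval of 1456108_x_at, 0.03 to 0.82, left out 0. Its limma adjusted p was 0.994 and its probes can match other transcripts, so no change in Rnf112 was called. Duplication replicate 1 was not low across the segment. Over the 19 other segment genes that were bright (mean signal of at least 6, log2), it lay 0.41 above the wild-type mean, next to 0.48 and 0.49 for duplication replicates 2 and 3, while its brightest Rnf112 value lay at -0.20 from the wild-type mean, next to 0.52 and 0.36 for the other 2.

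The pattern of Rnf112 over the 6 mice was most like that of 5 genes away from its neighbourhood, ranked by Pearson correlation among 7103 bright genes. Srsf6, a splicing factor, had r = 0.995, and its log2 values were 7.94, 8.21 and 8.17 in duplication mice and 7.93 to 8.12 in wild-type mice. Cert1, a ceramide transfer protein, had r = 0.984, Inpp5j, an inositol phosphatase gene, 0.965, Rhob, a small GTPase, 0.947, and Cnppd1 0.945. These are the highest of many correlations over only 6 mice, on shared arrays, and are given as a description. The log2 fold changes of the 5 lay between 0.05 and 0.09.

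**Figure D2:**
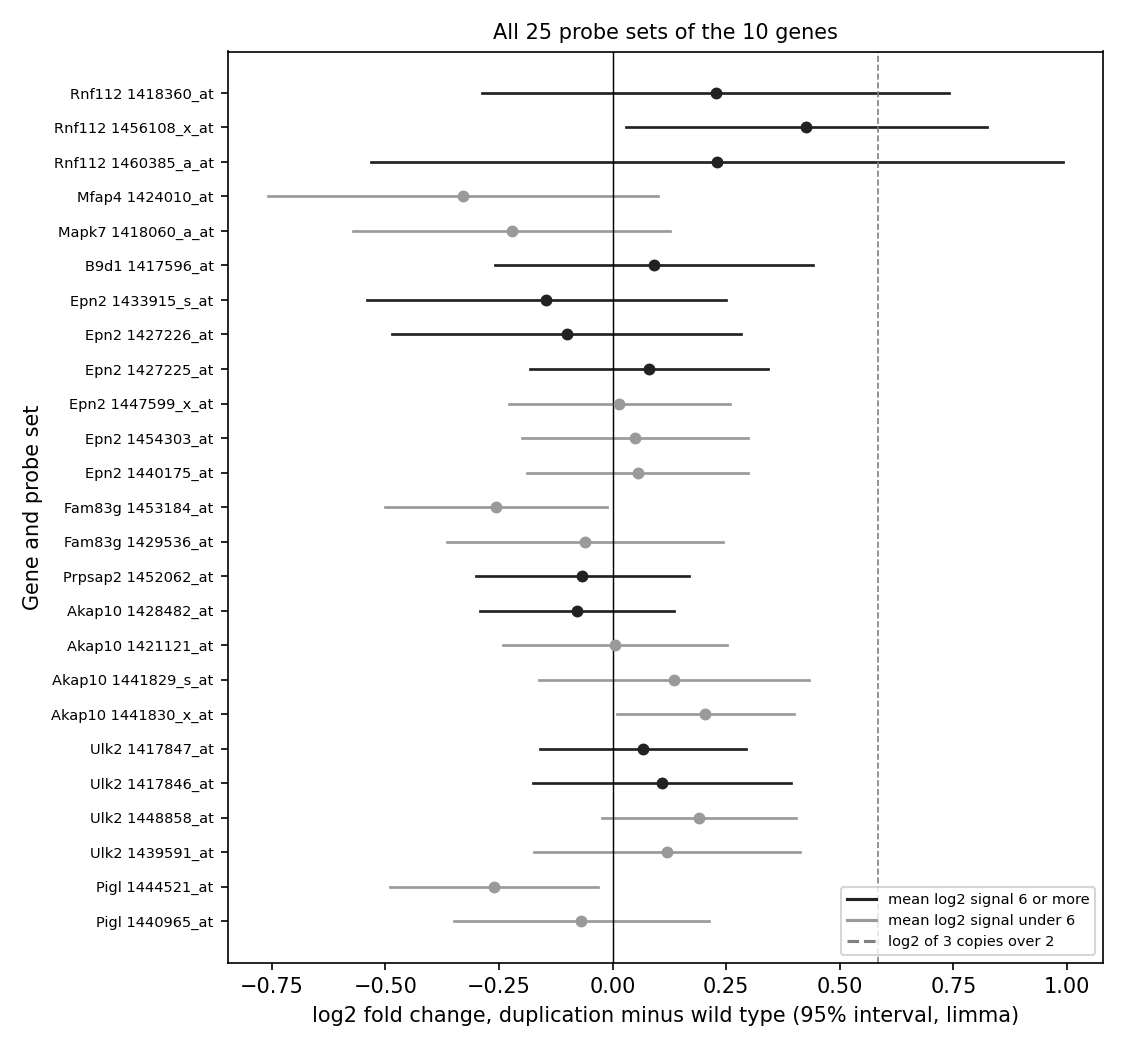
Log2 fold change, duplication minus wild type, with its 95% interval from limma for each of the 25 probe sets; dark lines are bright probe sets (mean log2 signal of at least 6), grey lines dimmer ones. The dashed line is the log2 of 3 copies over 2. The 3 intervals of Rnf112 reach that line, and the 22 intervals of the telomeric genes end below it.

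Past Rnf112, none of the 9 telomeric members was higher by as much as the copy ratio. All 9 telomeric members, and all 22 of their probe sets, had a 95% interval that ended below 0.58. The median log2 fold change over the 9 genes, each at its brightest probe set, was -0.15, with 2 higher and 7 lower, against a median of -0.02 over 18193 genes, of which 58.3% were lower. Leaving out duplication replicate 2 moved the members' median to -0.24, leaving out replicate 3 moved it to -0.09, and the regional marker score as covariate moved it to -0.061. It was -0.067 with the mean over all probe sets of a gene, with the probe set of the smallest spread, or over bright genes alone. Over all 22 telomeric probe sets 12 were higher and 10 lower. At their brightest probe sets, the intervals of the 9 genes ended below 0.58 in each of the 13 to 15 alternative fits in which the gene was kept, and the highest bound was 0.57 for B9d1 with a plain equal-variance statistic. An interval below 0.58 was not confined to genes outside the segment, since 7 of the 12 measured genes just inside it also had one, 2 of them (Tmem11 and Map2k3) among the 5 bright ones.

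Mfap4 encodes a matrix glycoprotein of elastic microfibrils. At 1424010_at its log2 values were 4.03, 4.54 and 3.85 in duplication replicates 1 to 3 and 4.52, 4.29 and 4.59 in wild-type replicates 1 to 3. Duplication replicates 1 and 3 were the lowest and duplication replicate 2 lay within the wild-type range. Mfap4 thus had a log2 fold change of -0.33 (SE 0.18, limma adjusted p = 0.994). Without duplication replicate 2 it was -0.53 (unadjusted p = 0.00504, limma adjusted p = 0.593), and without replicate 3 it was -0.19. The fit without duplication replicate 2 had 2765 of all 45037 probe sets at an unadjusted p under 0.05, against 1272 with all mice, and 0 passed adjustment. Small unadjusted p-values were thus more common in that fit for any gene. The log2 fold change of Mfap4 was 0.07 for duplication replicate 2 alone against wild type and -0.11 with the regional marker score as covariate. Fibroblasts of the meninges express such matrix genes, and 8 of 10 meningeal markers were lower, where 58.3% of all genes were lower. Among the 10, Igf2 passed an unadjusted p of 0.05 by limma (-0.38), where 2.01% of all genes were lower at that threshold. Means over the 10 were 5.55 to 5.81 in duplication and 5.83 to 5.99 in wild-type mice. The part of meningeal RNA in the Mfap4 values was not tested.

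Mapk7 encodes ERK5, a MAP kinase activated by the kinase of Map2k5. At 1418060_a_at it read 4.46, 4.62 and 4.15 in duplication and 4.78, 4.43 and 4.67 in wild-type mice, in replicate order. Duplication replicate 3 was the lowest and the groups overlapped. Its log2 fold change was -0.22 (SE 0.15, 95% interval -0.57 to 0.13), -0.06 with the regional score as covariate and -0.01 for duplication replicate 2 alone. It was -0.33 without duplication replicate 2, -0.32 without wild-type replicate 2 and -0.09 without duplication replicate 3.

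Epn2 encodes epsin 2, an adaptor of clathrin-coated pits, and had 6 probe sets. The brightest, 1433915_s_at, read 8.24, 8.58 and 7.91 in duplication and 8.38, 8.29 and 8.50 in wild-type mice. Duplication mice spread on both sides of the wild-type range, with replicate 2 above it and replicates 1 and 3 below it. Here the log2 fold change was -0.15 (SE 0.17). It was -0.32 without duplication replicate 2 (unadjusted p = 0.0489, limma adjusted p = 0.811). It turned to 0.02 without duplication replicate 3 and to 0.07 with the regional score as covariate. The next probe set, 1427226_at, kept that order of the duplication mice, at 7.86, 8.18 and 7.55, for a log2 fold change of -0.10, while the other 4 lay between 0.01 and 0.08.

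Mfap4, Mapk7 and Epn2 ranked the duplication mice alike, with replicate 2 highest and replicate 3 lowest. Prpsap2 had the same order of these mice, yet its Pearson correlation over the 6 mice was lower, at 0.46 with Epn2, 0.39 with Mfap4 and 0.24 with Mapk7. Over the 6 mice the Pearson correlation was 0.93 between Mfap4 and Epn2, 0.90 between Mfap4 and Mapk7 and 0.86 between Mapk7 and Epn2, 3 of the 4 highest of the 45 pairs of members, from the same 6 arrays and with no test. The regional score, in which striatal and thalamic markers count up and CA1 and dentate markers count down, had the opposite order in those mice, at -0.98, -3.05 and 1.27 for duplication replicates 1 to 3 and -2.42, -2.00 and -2.46 in wild-type mice.

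B9d1 encodes a protein of the transition zone at the base of the primary cilium. At 1417596_at it read 6.39, 6.20 and 6.05 in duplication and 5.84, 6.31 and 6.22 in wild-type mice. The lowest value was that of wild-type replicate 1, and the log2 fold change of 0.09 (SE 0.15) turned to -0.05 without that mouse.

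Fam83g belongs to a family of proteins that anchor casein kinase 1. Its brighter probe set, 1453184_at, read 3.86, 3.79 and 3.85 in duplication replicates 1 to 3 and 4.10, 3.91 and 4.26 in wild-type replicates 1 to 3. The duplication mice were the 3 lowest, in a narrow band (SD 0.04 against 0.17), close to the medians of the arrays, 3.74 to 3.79, where signal is faint. Fam83g thus had a log2 fold change of -0.26 (SE 0.10, 0.837-fold, 95% interval -0.50 to -0.01, unadjusted p = 0.0423, limma adjusted p = 0.994). With 1 mouse left out its unadjusted p was under 0.05 only without wild-type replicate 2 (0.0119) and was otherwise 0.0771 to 0.119. The dimmer probe set, 1429536_at, read 2.99, 2.98 and 2.88 against 2.89, 2.85 and 3.29, a log2 fold change of -0.06 with overlapping groups. Slc5a10, whose gene span overlaps that of Fam83g, was at -0.16 (SE 0.11).

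Prpsap2 encodes a partner of the enzyme that makes phosphoribosyl pyrophosphate, the sugar precursor of nucleotides. At 1452062_at it read 7.03, 7.15 and 6.95 in duplication and 7.06, 7.25 and 7.02 in wild-type mice. The 6 mice spanned a narrow range and the log2 fold change was -0.07 (SE 0.10, 95% interval -0.30 to 0.17).

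Ulk2 encodes a kinase that starts autophagy, and its 4 probe sets were all higher on average in duplication mice by small amounts. In 2 of them the difference turned negative without 1 mouse. The brightest, 1417847_at, read 8.04, 7.85 and 7.85 against 7.73, 7.90 and 7.92, a log2 fold change of 0.07 (SE 0.10) that was 0.0024 without duplication replicate 1. At 1448858_at the values were 5.83, 5.94 and 6.05 in duplication and 5.67, 5.76 and 5.81 in wild-type mice. There the duplication mice were the 3 highest by a small margin, for a log2 fold change of 0.19 (SE 0.09, unadjusted p = 0.0735). The remaining 2 probe sets were at 0.11, or -0.02 without duplication replicate 3, and at 0.12, or -0.00 without duplication replicate 2.

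Akap10 encodes an anchor that holds protein kinase A at membranes, and had 4 probe sets. The brightest, 1428482_at, read 6.02, 6.11 and 6.18 in duplication and 6.06, 6.25 and 6.23 in wild-type mice, a log2 fold change of -0.08 (SE 0.09). The dimmest, 1441830_x_at, read 2.37, 2.46 and 2.57 against 2.25, 2.27 and 2.26, so that the groups did not overlap and the log2 fold change was 0.20 (SE 0.08, unadjusted p = 0.0422). Those values stand near the lowest on the array, 2.14, where no level can be read from them. Probe set 1421121_at read 3.22, 3.47 and 3.39 against 3.34, 3.24 and 3.49, a log2 fold change of 0.01. Probe set 1441829_s_at read 2.68, 2.91 and 2.98 against 2.90, 2.73 and 2.54, a log2 fold change of 0.13. Both had overlapping groups. The probe sets of this gene disagreed in sign, with 3 higher and 1, the brightest, lower.

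Pigl encodes the enzyme of the second step of glycosylphosphatidylinositol anchor synthesis, by which proteins are tethered to the cell surface. Its brighter probe set, 1444521_at, read 5.29, 5.37 and 5.49 in duplication replicates 1 to 3 and 5.52, 5.66 and 5.75 in wild-type replicates 1 to 3. The duplication mice were the 3 lowest, with a small margin to wild-type replicate 1. Pigl thus had a log2 fold change of -0.26 (SE 0.10, 0.835-fold, 95% interval -0.49 to -0.03, unadjusted p = 0.0311, limma adjusted p = 0.994). It was -0.30 with the regional score as covariate (unadjusted p = 0.0361) and -0.27 for duplication replicate 2 alone. With 1 mouse left out it lay between -0.32 and -0.21, and the unadjusted p was under 0.05 without duplication replicate 3 or wild-type replicate 1 and 0.0688 to 0.104 otherwise. The dimmer probe set, 1440965_at, read 4.29, 4.44 and 4.31 against 4.51, 4.56 and 4.18, a log2 fold change of -0.07 with overlapping groups.

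Levels of different genes cannot be ranked from array signal, since probe sets differ in how brightly they bind. The members fell into 6 bright genes (Rnf112, B9d1, Epn2, Prpsap2, Ulk2 and Akap10) and 4 dim ones (Mfap4, Mapk7, Fam83g and Pigl). The 4 dim genes were those with the most negative log2 fold changes, -0.22 to -0.33, while the 5 bright telomeric genes lay between -0.15 and 0.09.

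**Figure D3:**
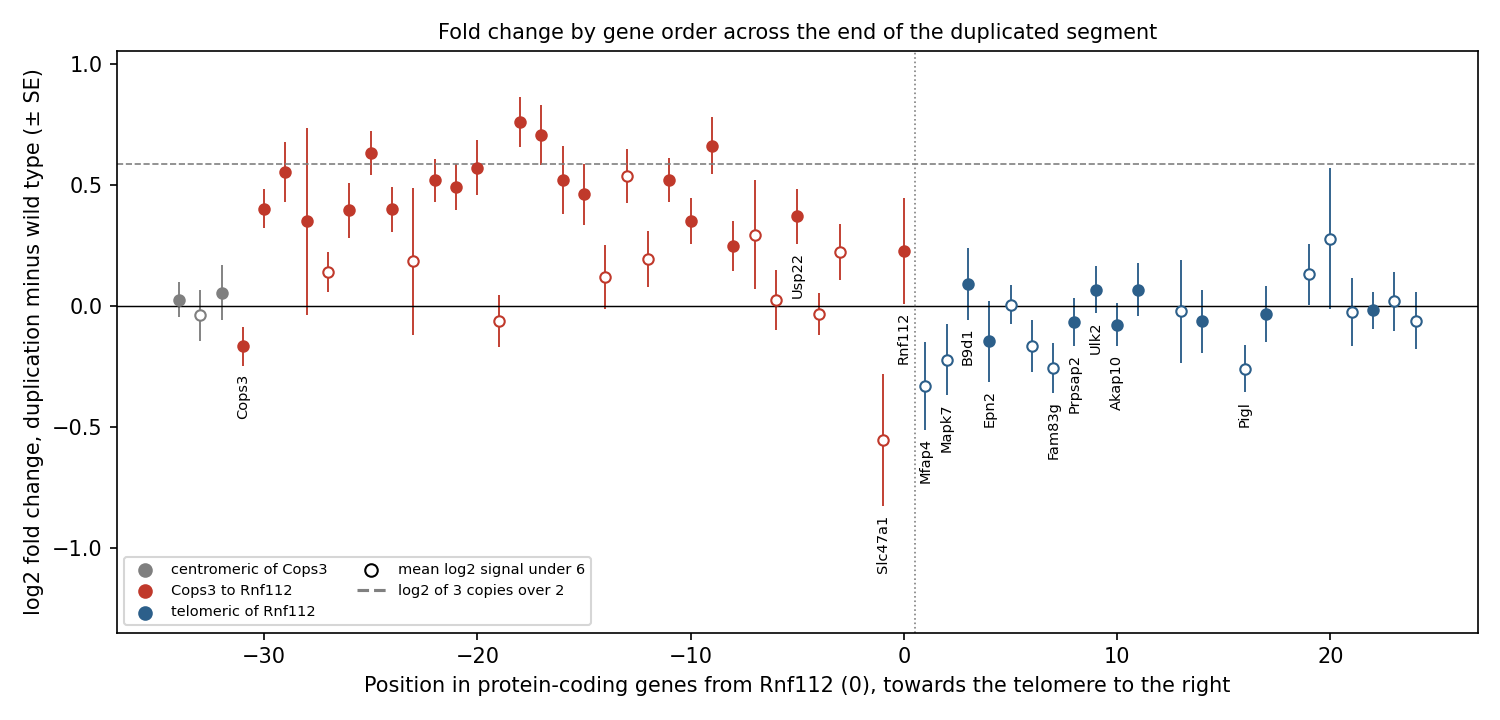
Log2 fold change (duplication minus wild type, error bars ± SE from limma) of measured protein-coding genes by their order from Rnf112, which is at 0; the telomere is to the right, the dashed line is the log2 of 3 copies over 2, and open points are dim genes (mean log2 signal under 6). Of the 12 points just left of Rnf112, 10 are above 0, and points to its right lie on both sides of 0, from -0.33 to 0.28.

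The end of the segment was then set beside its surroundings. Of 12 measured genes just inside it, from Smcr8 to Slc47a1, 10 were higher (median 0.27 on the log2 scale), and 6 had an unadjusted p under 0.05, all higher, where 1.15% of all genes at their brightest probe set were higher at that threshold. They were Dhrs7b at 0.52, Natd1 at 0.66, Smcr8 at 0.54, Tmem11 at 0.35, Usp22 at 0.37 and Map2k3, named after its value was seen, at 0.25. With 1 mouse left out, Map2k3 stayed under that p only without wild-type replicate 1, and Usp22 missed it without duplication replicate 1 (0.0515). The duplication mice were the 3 highest in 7 of the 12, against 2.70% of genes. The genes nearest to Rnf112 on that side were less clear. Aldh3a2, a fatty aldehyde dehydrogenase, was at 0.22 (SE 0.12), and Slc47a1, an organic cation transporter next to Rnf112, at -0.55 (SE 0.27) at a mean log2 value of 4.19 with overlapping groups. Without wild-type replicate 3 both passed an unadjusted p of 0.05, Aldh3a2 at 0.32 and Slc47a1 at -0.75, as did Slc47a1 without duplication replicate 3, at -0.76.

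On the telomeric side, 8 measured genes of a list of neighbours other than the members were examined. Of these, 0 had an unadjusted p under 0.05 by limma, where 1.15% of all genes were higher and 2.01% lower at that threshold. With 8 genes and shares this small, no reading is made of that count. The median over these 8 genes was -0.03 on the log2 scale, from -0.16 for Slc5a10 to 0.13 for Trpv2, a cation channel. Grap, an adaptor of growth factor signalling next to Epn2, was at 0.00 (SE 0.08), and Specc1, next to Akap10, at 0.07 (SE 0.11). The groups overlapped in all 8. In the gene order as plotted, which goes 24 genes past Rnf112, 12 telomeric genes outside the members were measured, and 1 of them had an interval that reached 0.58. It was Lrrc75a, which is not on the list and was the highest of the 12, at 0.28 (SE 0.29, 95% interval -0.41 to 0.96). Without duplication replicate 2 Lrrc75a was at 0.64 (unadjusted p = 0.00156, limma adjusted p = 0.579). Among the 9 telomeric members the duplication mice were the 3 lowest in 2, Fam83g and Pigl, against 5.59% of genes. With 1 alternative each, Slc5a10 and Zswim7 passed an unadjusted p of 0.05. Slc5a10 was at -0.25 without duplication replicate 2 (unadjusted p = 0.0425, limma adjusted p = 0.803). Zswim7 was at -0.31 with the regional score as covariate (unadjusted p = 0.0210). Trpv2, Zswim7 and Lrrc75a are named after their values were seen.

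**Figure D4:**
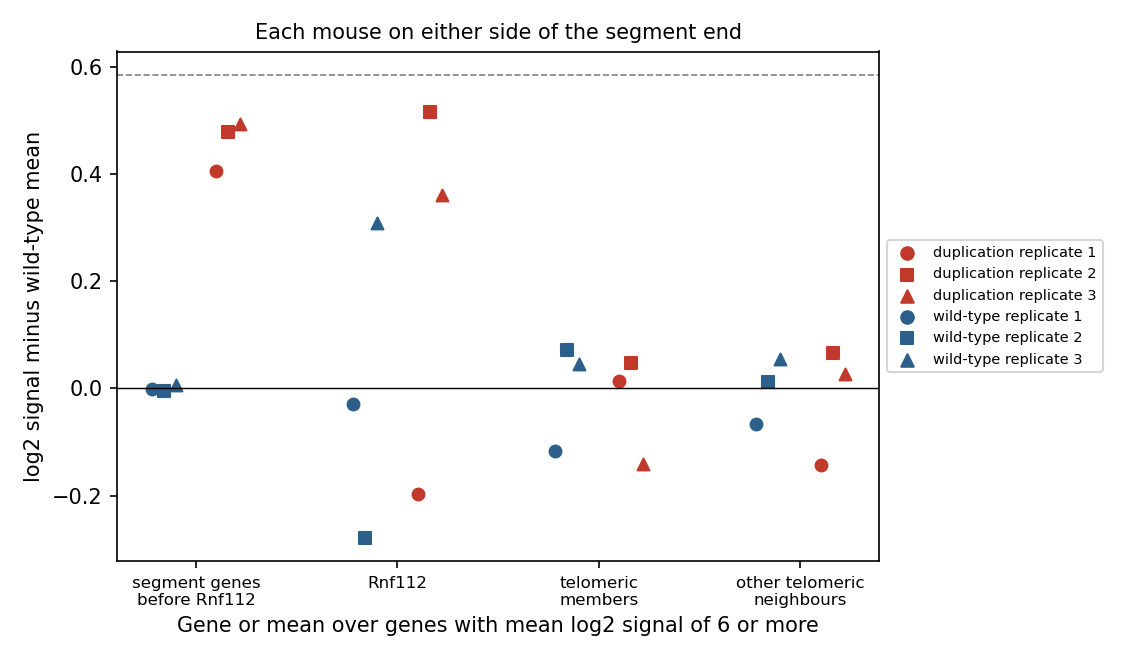
Log2 signal of each mouse minus the wild-type mean, for the mean over 19 segment genes other than Rnf112, for Rnf112 at its brightest probe set, for the mean over 5 telomeric members and for the mean over 4 other telomeric neighbours, bright genes only. The 3 duplication mice sit at 0.41 to 0.49 for the segment, spread from -0.20 to 0.52 for Rnf112, and mix with the wild-type mice on the telomeric side.

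Mouse by mouse, the means over bright genes gave these values. Over the 19 segment genes the duplication mice lay 0.41, 0.48 and 0.49 above the wild-type mean, and the wild-type mice within 0.01 of it. Over B9d1, Epn2, Prpsap2, Ulk2 and Akap10, duplication replicates 1 to 3 lay at 0.01, 0.05 and -0.14 from the wild-type mean and wild-type replicates 1 to 3 at -0.12, 0.07 and 0.05, so that the groups overlapped. Over Specc1, Ttc19, Cenpv and Tvp23b, the duplication mice lay at -0.14, 0.07 and 0.03. No p is given for these means, because the genes were chosen with results known.

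Partner genes of the members lie elsewhere in the genome, at normal copy number, and were examined by lists chosen by function. Of the 10 listed genes around ERK5, the cascade of Mapk7, 6 were higher and 4 lower with 0 at an unadjusted p under 0.05 by limma, and the smallest p was that of Map2k5 at -0.18 (SE 0.10). Among 12 measured genes of the ciliary transition zone that works with B9d1, 5 were higher and 7 lower, 0 passed, and Tmem67 stood first at 0.10 (SE 0.10). Among 12 genes of clathrin endocytosis, 3 were higher and 9 lower, 0 passed, and Snap91, an adaptor of synaptic vesicle retrieval, stood first at -0.14 (SE 0.12).

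Of 7 autophagy genes that act with the ULK kinases, 3 were higher and 4 lower, 0 passed, and Atg101 stood first at -0.20 (SE 0.12), or -0.29 without wild-type replicate 3 (unadjusted p = 0.0425). Of 7 measured genes of the first steps of glycosylphosphatidylinositol anchors, 4 were higher and 3 lower, 0 passed, and Pigc, of the step just before Pigl, had 0.18 (SE 0.10). Of 10 genes of protein kinase A and its anchors, 5 were higher and 5 lower, 0 passed, and Prkar2b, a regulatory subunit, stood first at 0.36 (SE 0.43). Prkar2b ranged from 0.07 without duplication replicate 3 to 0.81 without duplication replicate 2 (unadjusted p = 0.0438, limma adjusted p = 0.805).

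The list around Prpsap2 held the 1 partner gene of 81 with an unadjusted p under 0.05, or 1.23%, where 1.15% of all genes were higher and another 2.01% lower at that threshold. Prps1, which encodes a phosphoribosyl pyrophosphate synthetase on the X chromosome, had a log2 fold change of -0.29 (SE 0.10, unadjusted p = 0.0204, limma adjusted p = 0.994). Its mean was 8.76 in duplication mice and 9.05 in wild-type mice, and the duplication mice were the 3 lowest, as in 5.59% of all genes. With 1 mouse left out its unadjusted p was under 0.05 without duplication replicate 1 or wild-type replicate 1 and 0.0541 to 0.0655 otherwise. The other 3 genes of that list were higher, at 0.04 to 0.13. Among the partner genes of the other lists, the duplication mice were the 3 highest in Pigc, as in 2.7% of all genes. They were the 3 lowest in Clta, at -0.07, and Sod1, at -0.06. Clta and Sod1 are named after their values were seen. Among 7 genes of casein kinase 1 and the FAM83 family, 7 of elastic fibres and 5 linked to Rnf112, 0 passed, and the smallest p-values were those of Csnk1d at -0.10 (SE 0.09), Eln, the elastin gene, at 0.29 (SE 0.16) and Gfap, an astrocyte filament gene, at -0.39 (SE 0.32). Gfap was lowest in duplication replicate 3 and was at 0.01 without it, and Eln was at 0.45 without duplication replicate 1 (unadjusted p = 0.0137).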

How the data were processed

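Hippocampus RNA of 6 mice was measured on 1-colour Affymetrix arrays. The deposited values are log2 signals per probe set, made by the authors with RMA (version not given in the sources used here), per the submitters' processing notes. They were used as deposited, with no further normalization and no filter. Per the labels' protocols, other organs and pools are named for extraction and labelling, while each sample record names hippocampus and 1 individual, which was used here. With arrays, precision is limited by how many there are.

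Of the probe sets, 64 controls were left out and 45037 tested. GEO's platform annotation gave 34945 of them 1 symbol, 932 several and 9160 none, and 18193 genes were each taken at the probe set of the highest mean. RefSeq's gene table (GRCm38.p6) gave gene order only, since the values name no build. Some listed genes were not analysed here.

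Groups were compared with limma 3.58.1 in R 4.3.3 (lmFit, eBayes without trend, no covariate, two-sided, 7.11 degrees of freedom), with Benjamini-Hochberg adjustment over all probe sets and a threshold of 0.05; the fit was tested on simulated data. A mean log2 value of 6 or more was called bright. The regional score is the mean over striatal and thalamic markers minus that over CA1 and dentate markers. Intervals are 95% intervals of limma. The members and lists were chosen with earlier results of these data known. Named genes were every probe set of the members, list genes with an unadjusted p under 0.05 (up to 4 a list) or else the 1 with the smallest p, the nearest neighbours, and the 5 patterns most like Rnf112. The 19 alternatives were 2 filters, 3 scalings, a trend, array weights, a plain statistic, 2 probe set choices, the regional score, duplication replicate 2 alone, a threshold of 0.01 and each of the 6 mice left out.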

Additional observations from a re-analysis of the deposited data

How the results depend on the processing

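Of the 25 probe sets of the members, 4 had an unadjusted p under 0.05. The count was 2 with probe sets under a mean of 4 dropped, with an intensity trend and robust prior or with a plain statistic, 1 with those under 6 dropped, with array weights or with the regional score, 0 at a threshold of 0.01, and 0 to 2 with 1 mouse left out. Over all 45037 probe sets 1272 had such a p. It was 508 of 20778 with the filter at 4 and 307 of 10969 with that at 6. It was 1265 with the trend, 1553 with the plain statistic, 1731 with array weights and 1354 with the regional score. With 1 mouse left out it was 850 to 2765. The number at 0.01 was not taken, and no reading is made of the members' counts. Probe sets with no overlap numbered 4, 2 with the filter at 4, 0 with that at 6 (fewer are kept) and 5 to 7 with 1 mouse left out, the highest without duplication replicate 1. With all mice and no filter, the duplication mice were the highest in 3.41% of all probe sets and the lowest in 4.61%. Those shares were not taken in the other settings. With 1 mouse fewer, groups overlap less easily for any probe set, so no reading is made of the higher counts. The median of the 9 telomeric members was -0.15, and -0.0011 for duplication replicate 2 alone. Telomeric neighbours past the threshold numbered 0, 1 with the regional score and 0 to 1 with 1 mouse left out.

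At the brightest probe sets, Rnf112 stayed higher, and Mapk7, Fam83g and Pigl lower, in all alternatives that gave a value. Epn2 turned to 0.071 with the regional score, 0.056 at the probe set of the smallest spread, 0.19 for duplication replicate 2 alone and 0.019 without duplication replicate 3 (lowest -0.32). Akap10 turned to 0.067 over the mean of its probe sets and 0.20 at that of the smallest spread. For duplication replicate 2 alone, Mfap4 was 0.067, Prpsap2 0.037 and Ulk2 -0.0011. Without 1 wild-type mouse, B9d1 reached -0.050 (up to 0.19) and Prpsap2 0.0047 (down to -0.12). The causes were not tested. No scaling moved the median over all probe sets by over 0.1. No paired analysis was possible because the mice of the groups share no number in the labels.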
